A study of Mus musculus with 3 samples.

Results

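The solute carriers (SLC) are membrane proteins that move amino acids, sugars, nucleotides, metals, inorganic ions, lipids and vitamins across the plasma membrane and the membranes of mitochondria, lysosomes and the Golgi apparatus. They work by facilitated diffusion, by exchange or by coupling to an ion gradient, and their families are numbered by sequence. In macrophages they are known for supplying glucose and amino acids to activated cells, for exporting the products of digested cargo from lysosomes, and for handling metals. The genes described here are 146 of the 371 protein-coding mouse genes with a symbol of the form Slc followed by a number. They were chosen by their measured level, a mean over all libraries of 1 TPM or more. TPM is a share of all transcripts in a library, corrected for transcript length. The rule left out 7 genes (Slc40a1, Slc11a1, Slc11a2, Slc7a2, Slc7a11, Slc30a1 and Slc39a14), and 218 others were below 1 TPM, of which 117 were listed at 0 in every library. Their levels are therefore given as a description, with no test.

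The RNA came from the cytosolic fraction of macrophages grown from bone marrow of C57BL/6J mice, with no allele named, and was depleted of ribosomal RNA before sequencing. They had received lipid A, the part of bacterial endotoxin that Toll-like receptor 4 recognises, at 100 ng/ml for 90 min. The 3 libraries, biological replicates 1, 2 and 3, form 1 group, each from 1 µg of RNA, and carry the same donor identifier. Nothing in the labels says that they came from separate animals or cultures, so p-values measure only the spread between these libraries, which may be technical. Cells without lipid A and the nuclear fraction were not analysed here, so no value below is an induction.

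The libraries held 33821479, 47843161 and 59390843 expected counts in replicates 1, 2 and 3, and the lowest count of any of the 146 genes in a library was 113. All 10 macrophage markers examined were above 1 TPM, with means of 20.6 (Mertk) to 4347 (Lyz2) TPM. Markers of T and NK cells, B cells, erythroid cells and fibroblasts were all below 1 TPM, and the erythroid anion exchanger Slc4a1 was listed at 0 in every library. Of 3 endothelial markers, Kdr was above 1 TPM (2.34, 2.01 and 1.58 TPM in replicates 1, 2 and 3). Of 6 neutrophil markers, S100a8 and S100a9 were above 1 TPM (12.2 and 19.3 TPM), while Ly6g was listed at 0. In bulk RNA, fewer cells of a type and less RNA per cell cannot be told apart. The nuclear RNA Malat1 stood at 128.25, 335.32 and 913.28 TPM in replicates 1, 2 and 3, and Neat1 at 12.86, 24.1 and 66.94 TPM. Their part in the results below was not tested.

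The 146 genes lay close to the middle of the protein-coding genes that reach 1 TPM in this cytosolic RNA, not of all protein-coding genes. Their median was 6.07 TPM, against 6.57 TPM for the 8747 protein-coding genes that reach the same limit, which include them. On the scale log2(TPM + 0.1), their median level was 0.16, 0.09 and 0.14 below that of these 8747 genes in replicates 1, 2 and 3, a mean of -0.13 ± 0.03 (SD, n = 3). TPM was not scaled between libraries, and the median of the 8747 genes was 7.38, 6.07 and 6.21 TPM in replicates 1, 2 and 3. Steady or differing TPM between libraries must be read beside these medians. Of the 146 genes, 22 (15.1%) had at least 20 TPM, against 20.8% of the 8747 genes, and 3 (2.1%) had at least 100 TPM, against 4.4%. The summed level of the 146 genes was 2133, 1849 and 1876 TPM, or 0.799, 0.843 and 0.840% of all protein-coding TPM. Much of this sum rested on few genes: the 5 highest held 30.1% ± 0.8 and the 20 highest 58.4% ± 0.6 of it (SD, n = 3).

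**Figure D1:**
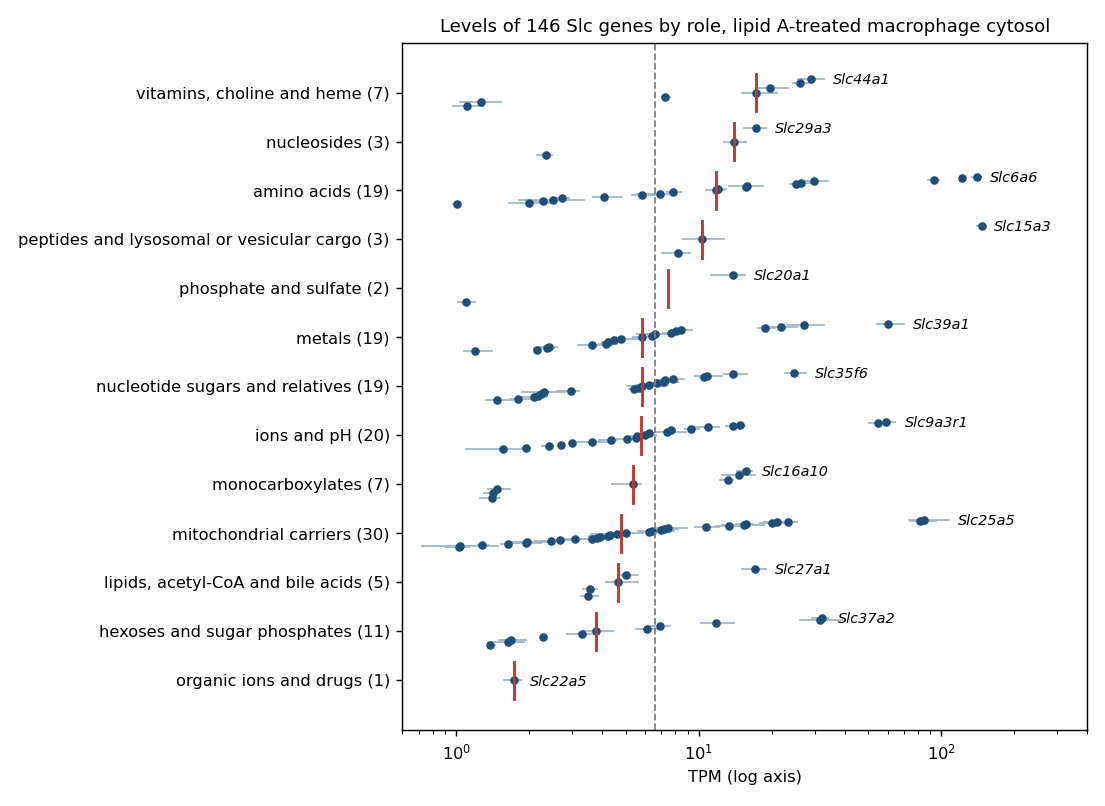
Level of each of the 146 Slc genes (TPM, log axis) by role, with the number of genes in parentheses. Points are means of 3 libraries, thin lines run between the lowest and highest library, red bars are role medians and the dashed line is the median of all protein-coding genes with at least 1 TPM (6.57 TPM). The highest gene of each role is named, and Slc15a3 (147 TPM) is the highest of all.

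Coverage of the roles was uneven. Of the 364 Slc genes outside those left out, 146 were members, and 8747 of all 21951 protein-coding genes reached the same limit. Roles were set by family number alone, so a role can hold genes with another substrate or none, such as Slc7a6os in the amino acid role. Outside the genes left out, members made up 19 of 27 annotated genes for zinc, copper and magnesium transport and 19 of 27 in the nucleotide sugar transporters and their relatives. Of the SLC25 mitochondrial carriers, 30 of 47 were members. For organic ions and drugs, the counts were 1 of 27, and for peptides and lysosomal or vesicular cargo 3 of 19. Among the roles with at least 3 members, the median level was highest for vitamins, choline and heme (17.2 TPM, 7 genes), nucleosides (13.98 TPM, 3 genes) and amino acids (11.8 TPM, 19 genes). It was lowest for hexoses and sugar phosphates (3.78 TPM, 11 genes). The nearest members to the limit were Slc25a23 (1.04 TPM), Slc25a26 (1.03 TPM) and Slc7a6 (1.01 TPM), and just outside it were Slc22a4 (0.997 TPM), Slc25a14 (0.993 TPM) and Slc25a43 (0.987 TPM). A symbol of the Slc form does not always mark a transporter: Slc9a3r1 encodes a scaffold protein that binds transporters and the cytoskeleton, and Slc4a1ap and Slc7a6os are named for a partner or a neighbouring gene.

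The highest member moves peptides out of lysosomes. Slc15a3, which carries histidine and small peptides across endosomal and lysosomal membranes, stood at 151.06, 140.74 and 149.23 TPM in replicates 1, 2 and 3. Its relative Slc15a4, which is needed for signalling by endosomal Toll-like receptors, stood at 9.52, 8.59 and 12.67 TPM. All libraries thus had Slc15a3 far above Slc15a4, by 15.9, 16.4 and 11.8 times. Slc15a3 shares 1541 exon bases, 28.1% of its own, with Tmem132a on the opposite strand (44.5 TPM), and the sources do not say if strand was used in counting, so reads of this pair cannot be told apart for certain. The high value of Slc15a4 in replicate 3 came with a short transcript of 166 bases, Slc15a4-211, listed at 5.25 TPM there and at 0 in replicates 1 and 2. Its full-length coding transcript Slc15a4-201 stood at 7.98, 7.21 and 5.97 TPM, lowest in replicate 3. In CPM, counts scaled to library size by TMM, Slc15a4 was also lowest there, with 39.5, 43.1 and 37.3 CPM in replicates 1, 2 and 3. Slc17a5, the lysosomal exporter of sialic acid, completed this role with 8.24 ± 1.11 TPM (SD, n = 3).

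Amino acid transporters held 3 of the 4 highest levels. Slc6a6, the sodium- and chloride-coupled importer of taurine, stood at 145.52, 140.54 and 133.50 TPM in replicates 1, 2 and 3. It was below Slc15a3 in each library, though nearly level with it in replicate 2. Their ranges over the libraries overlapped, and the order of this pair was not tested. Slc3a2, the CD98 heavy chain that carries light chains of the SLC7 family to the cell surface, had 123.08, 122.49 and 120.79 TPM, below every value of Slc6a6. Slc43a2, a facilitated transporter of large neutral amino acids, had 97.86, 93.16 and 88.13 TPM. The light chains of Slc3a2 measured here were much lower. Slc7a8, an exchanger of neutral amino acids, reached 24.95, 25.03 and 29.29 TPM, and Slc7a7, which exchanges cationic for neutral amino acids, 12.70, 10.72 and 11.99 TPM. Slc7a5, the light chain best known from activated lymphocytes, did not reach the limit, with 0.55, 0.50 and 0.42 TPM. Slc3a2 mRNA exceeded the sum of Slc7a5, Slc7a6, Slc7a7, Slc7a8 and Slc7a10 by 3.14, 3.29 and 2.83 times in replicates 1, 2 and 3. The light chain Slc7a11 is among the genes left out and is not in that sum.

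Glutamine and related transporters were uneven. The sodium-coupled Slc38a1 and Slc38a2 stood at 25.2 ± 1.5 and 15.9 ± 2.5 TPM (SD, n = 3), and Slc38a1 was higher in every library, by 1.47, 1.56 and 1.79 times. Slc1a5, a glutamine exchanger prominent in proliferating cells, had only 2.57, 1.65 and 1.76 TPM. The creatine importer Slc6a8 had 26.46, 29.27 and 34.15 TPM.

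Among hexose transporters the lysosome-associated GLUT6 gene led. Slc2a6 stood at 39.01, 29.46 and 26.14 TPM in replicates 1, 2 and 3, while Slc2a1, which encodes the plasma membrane glucose transporter GLUT1, stood at 6.21, 7.59 and 6.96 TPM. The groups of values did not overlap. Their ratio was 6.28 in replicate 1 and 3.88 and 3.76 in replicates 2 and 3, because replicate 1 was highest for Slc2a6 and lowest for Slc2a1. Slc2a3 (GLUT3) was below the limit with 0.87, 0.87 and 0.85 TPM. Slc37a2, a sugar phosphate exchanger of the endoplasmic reticulum, stood beside Slc2a6 with 34.21, 29.26 and 32.81 TPM, and all 4 annotated SLC37 genes were members. Slc37a4, the glucose-6-phosphate transporter, had 1.64 ± 0.28 TPM (SD, n = 3).

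**Figure D2:**
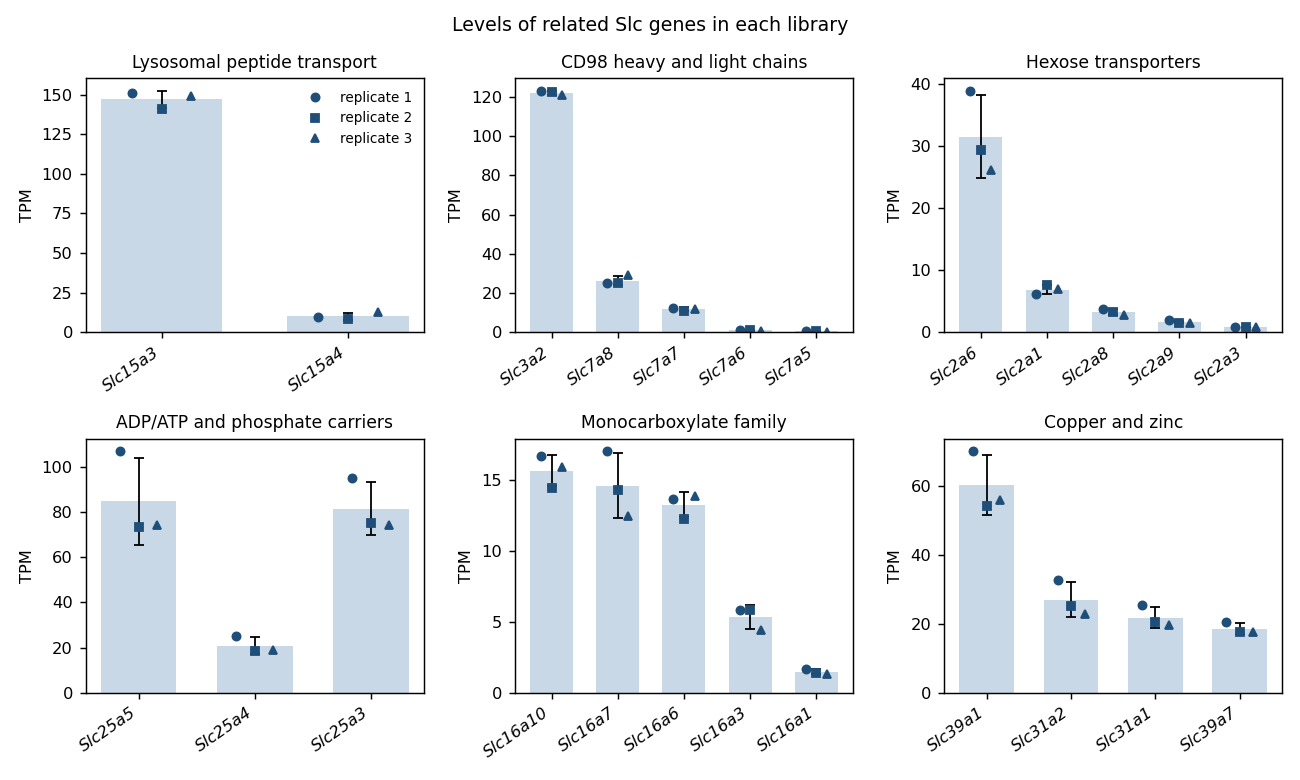
Levels (TPM, linear axis) of related Slc genes in the 3 libraries. Bars are means, error bars are SD (n = 3) and symbols are replicates 1 to 3; Slc7a5 and Slc2a3 are below the limit of 1 TPM. In all libraries Slc15a3 exceeds Slc15a4, Slc3a2 exceeds each light chain shown, Slc2a6 exceeds Slc2a1 and Slc25a5 exceeds Slc25a4.

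In the monocarboxylate family, numbered SLC16, an amino acid transporter and a lactate transporter had the highest levels. Slc16a10, which carries aromatic amino acids, had 16.63, 14.43 and 15.86 TPM, and Slc16a7, a pyruvate and lactate transporter of high affinity, 17.02, 14.29 and 12.44 TPM. These ranges overlapped. Slc16a3, the lactate exporter of glycolytic cells, stood at 5.80, 5.80 and 4.39 TPM, and Slc16a1, the widely expressed lactate and pyruvate transporter, at 1.67, 1.39 and 1.35 TPM. Slc16a3 exceeded Slc16a1 by 3.47, 4.17 and 3.25 times. Slc16a6 (13.2 TPM) shares 1052 exon bases with Amz2 on the opposite strand.

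The SLC25 carriers bring metabolites through the inner mitochondrial membrane, and among the members those of ATP synthesis came first. Ucp2, a carrier of this type under another symbol, is not a member and was higher, with 232.61, 137.84 and 176.07 TPM in replicates 1, 2 and 3. Slc25a5, an exchanger of ADP for ATP, stood at 107.12, 73.27 and 74.13 TPM in replicates 1, 2 and 3, and Slc25a3, which imports phosphate, at 95.20, 75.11 and 74.40 TPM. The libraries of both genes overlapped, with replicate 1 the highest for each. Slc25a4, the exchanger of ADP for ATP that prevails in heart and muscle, had 25.17, 18.54 and 19.01 TPM, and Slc25a5 exceeded it by 4.04 ± 0.19 times (SD, n = 3). Slc25a5 aligned to the processed pseudogene Gm5560 (0.070 TPM) with 98.3% identity over 887 bases, which cover 71.5% of the transcript. Slc25a39, needed for glutathione in mitochondria, had 23.2 ± 1.8 TPM. The 2-oxoglutarate and malate carrier Slc25a11 had 20.1 ± 3.6 TPM, the citrate carrier Slc25a1 13.3 ± 1.9 TPM and the dicarboxylate carrier Slc25a10 10.7 ± 1.3 TPM (SD, n = 3 each). Slc25a51, which imports NAD+, had 15.6 ± 1.3 TPM.

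Slc25a3 shows an exon choice that the level of the gene hides. Its gene (chromosome 10, 91116574 to 91124059 on the minus strand, mm10) has a pair of alternative coding exons that encode the same stretch of the carrier. In human tissues, heart and skeletal muscle use the upstream exon and most other tissues the downstream one. The mouse exons, taken from the GENCODE M21 transcripts and read on the strand of the gene, are printed here because transcripts were told apart by them, with the bases that differ between them in an alignment in capitals.
Downstream exon of Slc25a3, chr10:91121922-91122043, 122 bases: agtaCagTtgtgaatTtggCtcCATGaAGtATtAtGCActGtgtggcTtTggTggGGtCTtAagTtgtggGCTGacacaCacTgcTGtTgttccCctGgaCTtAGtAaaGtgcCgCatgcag
Upstream exon of Slc25a3, chr10:91122207-91122331, 125 bases: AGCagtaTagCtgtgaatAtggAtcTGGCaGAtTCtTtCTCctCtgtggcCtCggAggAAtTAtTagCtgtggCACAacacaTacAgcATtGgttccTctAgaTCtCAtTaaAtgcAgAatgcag
They share 77 aligned bases, 63.1% of the downstream exon. Transcripts with the downstream exon (Slc25a3-201 and Slc25a3-203) held 98.8, 98.4 and 96.9% of the gene's TPM in replicates 1, 2 and 3. Those with the upstream exon (Slc25a3-202 and Slc25a3-206) held 0.567, 0.053 and 0.390%. The rest lay in transcripts with a retained intron or with neither exon. A separate estimate of transcript levels by the authors gave 97.5% ± 1.2 and 0.48% ± 0.41 for the downstream and upstream exons (SD, n = 3).

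Among the members, metal transporters combined wide coverage with a steep order. The metal transporter genes Slc40a1, Slc11a1, Slc11a2, Slc30a1 and Slc39a14 are left out by the rule and have no place in it. Slc39a1, a zinc importer of the plasma membrane, had 70.26, 54.36 and 56.09 TPM in replicates 1, 2 and 3. Replicate 1 was highest, as for most members in TPM. The copper genes came next: Slc31a2, which acts on copper in endosomes and lysosomes, had 32.71, 25.34 and 23 TPM, and Slc31a1, the high-affinity copper importer, 25.45, 20.49 and 19.64 TPM. Slc31a2 was higher in each library, by 1.23 ± 0.06 times (SD, n = 3). Slc39a7, which releases zinc from the endoplasmic reticulum, had 18.7 ± 1.7 TPM. The other 15 metal genes lay between 1.19 and 8.43 TPM. The heme transporter of the lysosome, Slc48a1, had 29.11, 24.42 and 24.91 TPM.

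Ion and pH transporters were led, beside the scaffold Slc9a3r1 (58.99 ± 5.12 TPM), by the endosomal sodium and proton exchanger Slc9a9, with 57.97, 56.17 and 50.19 TPM. The mitochondrial exchanger of sodium, lithium and calcium, Slc8b1, had 14.8 ± 0.8 TPM (SD, n = 3 each).

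Nucleoside, phosphate and vitamin transport rested on few genes. Slc29a3, which lets nucleosides out of lysosomes and whose loss causes histiocytosis in human, had 18.87, 17.23 and 15.42 TPM. Its plasma membrane relative Slc29a1 had 15.62, 12.66 and 13.67 TPM, lower in each library, though their ranges overlapped. Slc20a1, a sodium-coupled phosphate importer, had 14.79, 11.23 and 15.55 TPM, and Slc20a2, of the same function, 1.20, 1.08 and 1.02 TPM. The choline transporter Slc44a1 had 32.88, 25.66 and 28.77 TPM. The ascorbate importer Slc23a2 had 19.6 ± 3.1 TPM (SD, n = 3), and the lysosomal transporter Slc46a3 20.99, 15.59 and 15.05 TPM. Of the nucleotide sugar transporters and relatives, Slc35f6 (24.6 ± 2.7 TPM) and Slc35a4 (13.8 ± 1.7 TPM) led. Slc22a5, the importer of carnitine, was the only member for organic ions (1.84, 1.57 and 1.78 TPM).

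Relatives of the SLC proteins that carry other symbols were taken from a list of 30, chosen with earlier results of these data known. Of these, 29 were found and 23 had at least 1 TPM. The median over the 29, with no limit on TPM, was 11.2 TPM. It cannot be compared with the 6.07 TPM of the 146 genes, which are all Slc genes that passed a limit. Ucp2, a carrier of the SLC25 type in the inner mitochondrial membrane, had 232.61, 137.84 and 176.07 TPM, and Unc93b1, which escorts Toll-like receptors to endosomes, 145.80, 127.59 and 126.14 TPM. The subunits of the mitochondrial pyruvate carrier, Mpc1 and Mpc2, had 66.2 ± 13.8 and 13.0 ± 2.8 TPM (SD, n = 3). Bsg (basigin), a chaperone of lactate transporters, had 64.3 ± 2.1 TPM. Emb, also listed as a partner protein of SLC transporters, had 23.8 ± 7.4 TPM (SD, n = 3 each). Both means were above that of every SLC16 gene.

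The spread between libraries was small for most of the 146 genes. The median SD of log2 CPM was 0.10 for them and 0.09 for 8746 protein-coding genes with at least 1 TPM, and 80 of 146 (54.8%) had an SD under 0.1, against 53.5%. Each gene was tested for a spread above the trended dispersion with edgeR's goodness-of-fit test and Benjamini-Hochberg adjustment over 12339 genes. This called 1 of the 146 genes, where the test called 2.31% of all genes and 0.982% of protein-coding genes, so the count is near the background. At an unadjusted p under 0.05 there were 2 of 146, against 5.86% of all genes.

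The gene called was Slc25a37, mitoferrin-1, which imports iron into mitochondria. It had 105, 106 and 168 CPM in replicates 1, 2 and 3, high in replicate 3 alone, with an SD of 0.39 on the log2 scale and an adjusted p of 0.034 (edgeR goodness of fit). In TPM it stood at 15.31, 12.43 and 18.50. Its coding transcript Slc25a37-201 had 10.63, 7.75 and 9.65 TPM, while the retained-intron transcript Slc25a37-203 had 2.99, 3.57 and 7.88 TPM, highest in replicate 3. Unlike the CPM, these TPM are not scaled between libraries. The median of the 8747 genes was 7.38, 6.07 and 6.21 TPM. Malat1 was also highest in replicate 3, and the part of nuclear RNA in this result was not tested. Slc25a37 shares 382 bases with the annotated gene Gm16867 (5.99 TPM). The call did not stand without replicate 2 (adjusted p = 0.44) or without replicate 3 (adjusted p = 1, edgeR goodness of fit in each).

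Of the others, Slc7a6os, Slc24a5 and Slc6a8, picked out after their values were seen, had an SD above 0.3 (0.34, 0.33 and 0.31) and did not pass the test. Slc24a5 shares 921 exon bases, 39.5% of its own, with Myef2 on the opposite strand (2.81 TPM). Reads of this pair cannot be told apart for certain. Slc6a8 had 140, 190 and 211 CPM, with an adjusted p of 0.501. At the other end stood Slc36a4, an amino acid transporter of the SLC36 family, with 66.0, 65.2 and 65.2 CPM and an SD of 0.01. Slc33a1, which brings acetyl-CoA into the endoplasmic reticulum, had 27.5, 27.9 and 27.5 CPM. The mitochondrial carrier Slc25a16 had 14.7, 14.7 and 14.4 CPM.

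**Figure D3:**
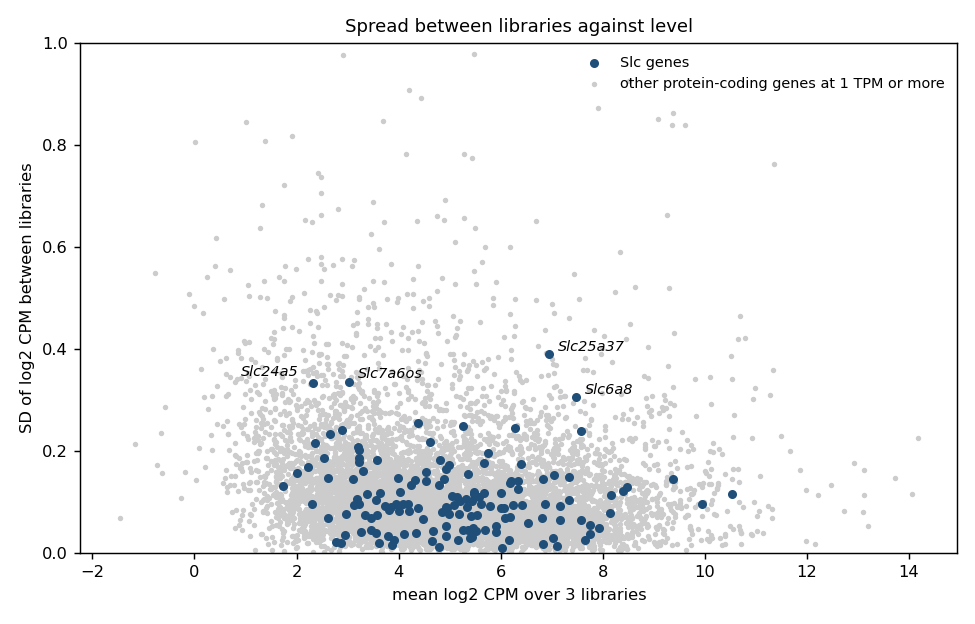
SD of log2 CPM between the 3 libraries (y axis) against mean log2 CPM (x axis) for the 146 Slc genes (blue) and other protein-coding genes with at least 1 TPM (grey; 10 of them lie above the axis). Slc25a37, Slc7a6os, Slc24a5 and Slc6a8 are the Slc genes with an SD above 0.3.

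The library in which each gene was highest was counted as a description, with no test. In CPM, 38, 56 and 52 of them were highest in replicates 1, 2 and 3 (26, 38.4 and 35.6%), against 40.3, 26.6 and 33.1% of the protein-coding genes. The roles did not share a pattern: of 30 mitochondrial carriers, 14, 5 and 11 were highest in replicates 1, 2 and 3. Of 19 genes in the amino acid role the numbers were 3, 9 and 7, and of 19 in the metal role 5, 10 and 4. In TPM, which is not scaled between libraries in this way, 117 of 146 (80.1%) were highest in replicate 1, against 83.6% of the protein-coding genes.

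Nearly all the RNA of most members was assigned to transcripts annotated as protein coding. The median share was 97.8% ± 0.8, against 97.8% ± 1.1 for the 8747 protein-coding genes (SD over 3 libraries). For 141 of 146 genes the coding transcripts alone reached a mean of 1 TPM. In 6 genes (4.1%) less than 50% of TPM was on coding transcripts, against 4.4% of the 8747 genes. The most extreme was Slc27a1, a fatty acid transport protein. Its gene level was 18.91, 15.04 and 17.23 TPM in replicates 1, 2 and 3, of which coding transcripts held 5.66, 2.19 and 1.33%. The retained-intron transcripts Slc27a1-205 (9.03, 7.65 and 9.05 TPM) and Slc27a1-202 (8.65, 6.90 and 7.31 TPM) held nearly all of it, so its place as the highest of the lipid transporters rests on RNA annotated with an intron. The authors' separate estimate put 26.2% on coding transcripts.

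Slc25a12, the mitochondrial aspartate and glutamate exchanger of excitable tissues, had 4.93, 4.19 and 3.78 TPM, with 19.03, 15.99 and 15.87% on coding transcripts. Its main transcript, Slc25a12-207, is annotated as a target of nonsense-mediated decay and had 3.36, 2.02 and 2.33 TPM. For Slc35b4, a transporter of UDP-sugars of the Golgi apparatus, the coding share was 35.4, 37.9 and 36.2%, and the retained-intron transcript Slc35b4-204 led with 4.23, 3.33 and 3.39 TPM. Slc35b1, which brings ATP into the endoplasmic reticulum, had 51.4, 53.5 and 26.7% on coding transcripts, lowest in replicate 3, where the decay-annotated Slc35b1-202 reached 5.57 TPM against 4.15 and 3.06 TPM in replicates 1 and 2. The remaining genes under 50%, named after their values were seen, were the riboflavin transporter Slc52a2 (44.8% ± 5.9) and the sodium bicarbonate cotransporter Slc4a7 (45.6% ± 9.3; SD, n = 3 each).

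**Figure D4:**
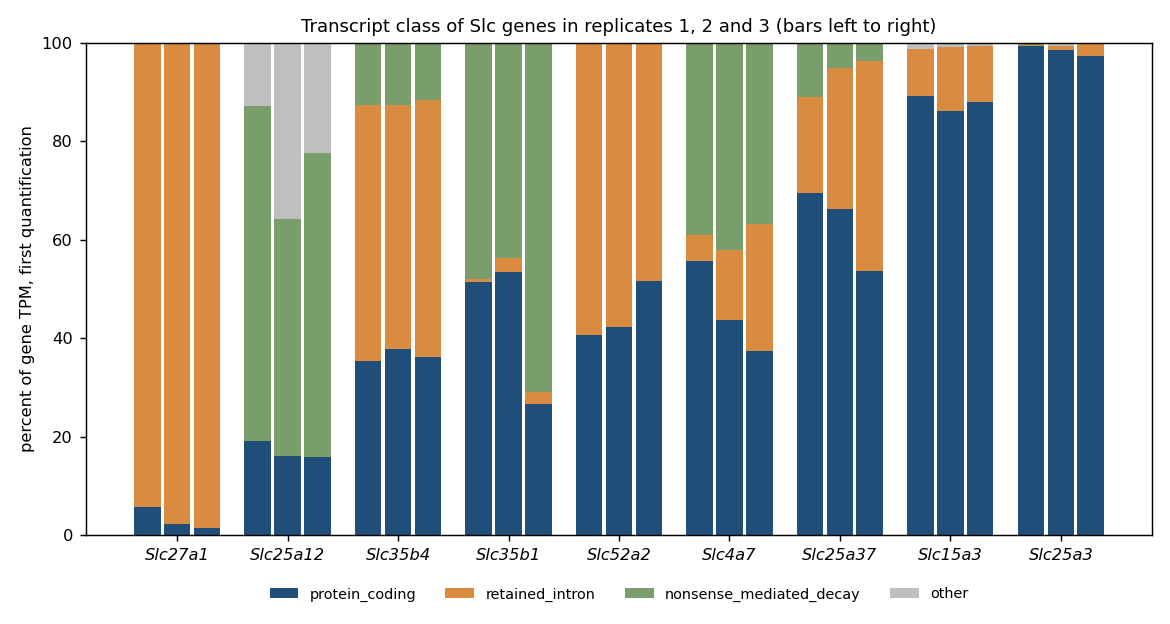
Percent of each gene's TPM on transcripts of each annotated class, with a bar for each of replicates 1, 2 and 3. From the left, 6 genes under 50% protein_coding on average are followed by Slc25a37, Slc15a3 and Slc25a3, and the retained_intron share of Slc25a37 is largest in replicate 3.

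Retained-intron shares moved with the library. Over the members that have both coding and other transcripts, 130 genes, the median share was 0.11, 0.33 and 0.99% in replicates 1, 2 and 3. Over 7255 protein-coding genes of the same kind it was 0.30, 0.69 and 1.61%. Malat1 and Neat1 had the same order of libraries (values above), and their part in these shares was not tested.

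For most of the 146 genes both ways of assigning reads gave like levels. The first quantification was made from alignments to transcripts and gives every TPM above unless said otherwise, and the second was estimated straight from the reads. Their ratio per gene was centred in each library on the median of 9491 genes, which removed a general difference of 2.03, 2.33 and 2.87 times in replicates 1, 2 and 3. In 130 of 146 genes the mean centred log2 ratio of first over second was within 0.25. A limma one-sample test over these genes, with Benjamini-Hochberg adjustment and a log2 ratio of at least 1 in size, called 0 members higher in the first (1.94% of all genes were) and 1 lower (2.72% of all genes and 0.377% of protein-coding genes were). Without the size limit, 72 of 146 (49.3%) had an adjusted p of at most 0.05 in limma, against 49% of all genes. That count rested on all 3 libraries: it was 22, 1 and 16 without replicate 1, 2 and 3. The main transcript was the same in both quantifications for 132 of 146 genes (90.4%), as for 90.4% of the 8747 genes.

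The gene called was Slc30a9, of the SLC30 zinc transporter family. It had 5.75, 4.17 and 4.43 TPM in the first and 5.92, 4.31 and 3.08 TPM in the second quantification, and its centred log2 ratios were -1.06, -1.27 and -1.01, low in every library (mean -1.11, limma adjusted p = 0.0048). The first put 76.2% on coding transcripts and the second 37.8%. The call did not stand with a pseudocount of 1 TPM, where the log2 ratio was -0.87, and without centring the ratio was 0.14. Slc38a6 (-0.72) and Slc35a5 (-0.54), picked out after their values were seen, were the only others beyond 0.5 in size. The ratios of Slc15a4 were -0.13, 0.01 and 0.76, high in replicate 3 alone, the library with the value of its short transcript.

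**Figure D5:**
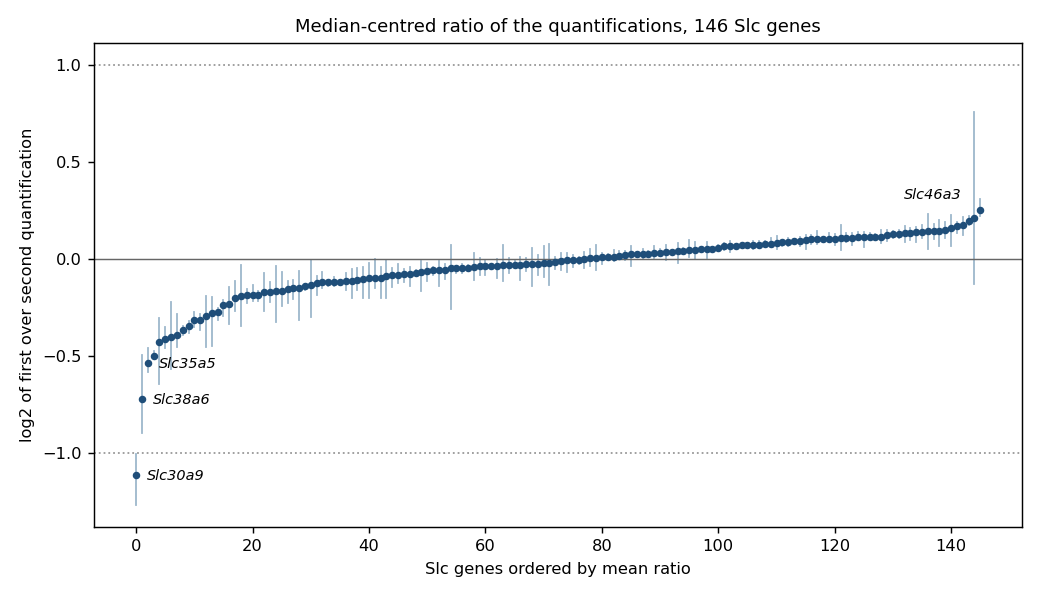
Centred log2 ratio of the first over the second quantification (y axis) for the 146 Slc genes, ordered by their mean (x axis). Points are means, lines run between the lowest and highest of 3 libraries and dotted lines mark a log2 ratio of 1 in either direction; Slc30a9 lies beyond -1.

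Reads could be shared with other genes at some members. Of the 146, 25 had a stretch of at least 200 bases with at least 95% identity to a transcript of another gene, 3 of them over at least 50% of the transcript, and 6 had such a copy with a mean of at least 1 TPM. Exon positions were shared with a gene on the opposite strand by 43 members, in 13 of which that gene had at least 1 TPM, and with a gene on the same strand by 9.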

How the data were processed

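The data are 3 total RNA libraries of 1 group. Per the text descriptions deposited with the files, the build was mm10 with the annotation M21, and the authors deposited for each library gene and transcript tables made from transcriptome alignments (the first quantification) and a transcript table made straight from the reads (the second). Per the file headers, the deposited first tables hold expected counts, TPM and FPKM, and the second holds TPM. Which tools made them, and whether strand was used, is not stated in the sources used here. Values of the second were summed per gene. Entries with no annotated gene were left out.

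The members, lists, roles and tests were chosen with earlier results of these data known. Genes named are the 15 highest members, the 2 highest of each role, 3 on either side of 1 TPM, those called by a test (up to 6 for spread and 4 in each direction for the ratio), the 4 steadiest, the 4 with the lowest coding share, and 24 known from macrophages. Genes outside this rule (Slc7a7, Slc38a1, Slc17a5, Slc2a3, Slc37a4, Slc16a6, Slc25a39, Slc25a51, Slc31a1, Slc39a7, Slc8b1, Slc23a2, Slc4a1ap, Slc7a6os, Slc24a5, Slc38a6, Slc35a5, Slc52a2, Slc4a7 and Slc5a3) were chosen after their values were seen. Expected counts were rounded, genes with at least 10 in every library kept, scaled by TMM and tested by goodness of fit to the trended dispersion (edgeR 4.0.16, R 4.3.3; log2 CPM with a prior count of 2). Ratios of log2(TPM + 0.1) were tested with limma 3.58.1 over genes that averaged 1 TPM or more in either quantification. Both tests used Benjamini-Hochberg adjustment over all genes and a threshold of 0.05. Both were also run on simulated data, where the spread test had a lower count filter and a single dispersion. That run does not show what size of spread could be found here. Copies were searched with minimap2. Exons came from GENCODE M21 and their sequence from its transcripts. Alternatives covered scaling (DESeq2 1.42.0 size factors), filters, dispersion, pseudocounts, centring, quantification and leaving out each library. The values of 1 gene that the rule for named genes covers are not reported here.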

Additional observations from a re-analysis of the deposited data

How the results depend on the processing

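The number of members was 146 and stayed between 113 (second quantification) and 158 (mean of at least 0.5 TPM) under the other settings tried, and was 145 to 148 when a library was left out. With TPM of coding transcripts only, an alternative chosen after seeing the data, it was 141. The median log2 level of the members minus that of all protein-coding genes at 1 TPM or more, members included (-0.13), stayed between -0.11 and -0.15 except where the genes compared changed by construction: -1.16 against genes with at least 5 TPM, and -5.26 for all 364 Slc genes with no limit on TPM. Without a library it was -0.15 to -0.12.

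The count of 1 member called for spread (Slc25a37) became 0 with a filter of 1 count, with no filter and with a common dispersion (adjusted p = 0.0825, 0.109 and 0.543, edgeR goodness of fit), and 0 or 1 without a library. It was 1 with DESeq2 size factors and with protein-coding genes only. The number of members lower in the first quantification (1, Slc30a9) became 0 with a pseudocount of 1 TPM, with a minimum of 5 TPM (Slc30a9 is then not tested), with no filter and without centring, and was 1 whichever library was left out. The number higher (0) became 109 with no filter and 131 without centring, since the general difference between the quantifications then stays in the ratios. The 72 members with an adjusted p of at most 0.05 (limma) became 145 with no filter or without centring, and 1 to 22 without a library. The log2 ratio of Slc30a9 changed sign with no filter (0.001) and without centring (0.14). The median coding share (97.8%) was 95.6% in the second quantification and 97.4 to 98.2% without a library. The libraries in which members were highest kept their counts within 1.5 times under each scaling tried.

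Of the 53 named genes, 37 moved by more than their SD between libraries with a pseudocount of 1 TPM and 26 in the second quantification. None did without a library, but leaving out 1 of 3 libraries cannot shift a mean by that SD, so this count shows nothing. Slc2a1 without replicate 2 and Slc30a9 in the second quantification changed sides of the median of these protein-coding genes. No paired analysis was possible because the samples form 1 group.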

Other observations

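The 364 Slc genes outside those left out belong to 47 numbered families, of which 8 had no member. Of the 364 genes, 146 were members. In families of 2 or more genes, every gene was a member in 4. The SLC20 phosphate importers, the SLC31 copper transporters, the SLC37 sugar phosphate exchangers and the SLC41 magnesium transporters were these. Of the large families, SLC6, which holds the transporters of neurotransmitters, had 2 members of 21 genes (Slc6a6 and Slc6a8), and SLC22, the organic ion transporters of liver and kidney, had 1 of 25. SLC5, with the sodium-coupled glucose transporters, had 1 of 13 (Slc5a3, which carries myo-inositol, 1.38 ± 0.05 TPM, SD, n = 3). All SLC34 genes, sodium-coupled phosphate importers, were listed at 0.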
